A study of Homo sapiens with 93 samples.

Results

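The 10 genes described here belong to the NF-kB pathway. The subunits are NFKB1 (ENSG00000109320), NFKB2 (ENSG00000077150), REL (ENSG00000162924), RELA (ENSG00000173039) and RELB (ENSG00000104856). The inhibitors are NFKBIA (ENSG00000100906) and NFKBIE (ENSG00000146232), and the feedback targets and cofactors are TNFAIP3 (ENSG00000118503), BCL3 (ENSG00000069399) and BIRC3 (ENSG00000023445). They were chosen by Ensembl identifier and not by a cutoff on measured values, though with earlier results of these data known. All 10 were found among the 14000 features of the deposited count table. The histone mark H3K36me3 (lysine 36 of H3 carrying 3 methyl groups) was measured by CUT&Tag, in which a transposase brought to the mark by an antibody releases DNA fragments for sequencing. The samples were 93 human lymphoblastoid lines, made by immortalising B cells with Epstein-Barr virus, with 1 library per line and no treatment. Per the labels, the medium held 20% serum, there were 4 growth batches with some 20 to 35 lines in each, each assay took 100000 frozen cells, and libraries had 14 cycles of PCR. The labels do not give the batch of a line, and all libraries form 1 group, so line, culture and technical differences between libraries cannot be told apart. Library totals ran from 2842955 to 24325746 counts, with a median of 14883653. Over 4278 pairs of libraries the smallest chi-square divided by its degrees of freedom was 5.85, above the value near 1 that counting error alone gives, so no library was treated as deposited more than once. Identifiers other than the 10 could not be paired with symbols (0 of 14000 matched the reference table), so B cell markers and other pathway genes were not checked.

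NF-kB factors are dimers of Rel family proteins. In resting cells IkB proteins hold them in the cytoplasm. The canonical route frees RELA, REL and NFKB1 dimers by degrading IkB, and the non-canonical route frees RELB by processing the NFKB2 precursor. Many inhibitors of the pathway are also its targets, which makes a negative feedback loop. In lymphoblastoid lines the viral membrane protein LMP1 keeps both routes active. H3K36me3 is laid down over gene bodies by SETD2, which travels with elongating RNA polymerase II. In a bulk library, more cells that carry the mark and more of the mark per cell cannot be told apart.

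The sequences upstream of the starts show which of these genes carry the DNA motif the factors bind. The kB consensus, a motif of 10 bases, was searched by script on both strands in the 250 bases before each start in the RefSeq promoter table (GRCh38.p14). Overlapping matches were allowed. Of the 10 genes, 8 were in the table, and 6 of these 8 had a match (NFKB1, NFKB2, REL, NFKBIA, TNFAIP3 and BIRC3). Among all 27305 genes in the table, 11.8% had a match. A match describes letters only, and binding was not measured. RELA and BCL3 had no such letters in this window. RELB and NFKBIE were not searched. For each gene the window of 30 bases with the match nearest to a start is printed below, 5′ to 3′ on the gene's strand, with matching bases in capitals.
NFKB1: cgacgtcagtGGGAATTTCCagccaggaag
NFKB2: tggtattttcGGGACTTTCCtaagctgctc
REL: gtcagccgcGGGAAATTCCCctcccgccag
NFKBIA: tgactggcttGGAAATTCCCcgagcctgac
TNFAIP3: ctttGGAAAGTCCCgtGGAAATCCCCgggc
BIRC3: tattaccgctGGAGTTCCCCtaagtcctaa

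These windows lie at chr4:102501300-102501329 on the plus strand (NFKB1), chr10:102395674-102395703 on the plus strand (NFKB2), chr2:60881518-60881547 on the plus strand (REL), chr14:35404811-35404840 on the minus strand (NFKBIA), chr6:137867188-137867217 on the plus strand (TNFAIP3) and chr11:102317339-102317368 on the plus strand (BIRC3). The TNFAIP3 window holds 2 separate matches, whose first bases lie 67 and 55 bases before the start. The REL window holds 2 overlapping matches. NFKB2 had matches before 2 of its 3 listed starts.

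Levels were compared between genes per kilobase of the RefSeq gene span, since a longer gene collects more counts. Whether the authors counted over this span is not stated. On this scale the 2 genes with the highest medians were a subunit and an inhibitor, NFKB2 and NFKBIE, and the lowest was the subunit NFKB1. NFKB2, whose p100 precursor is cut to p52 in the non-canonical route, spans 8420 bases on chromosome 10 (102394110 to 102402529) and had 4.75, 10.8 and 17.2 CPM (counts scaled to the library total) per kilobase in its lowest, median and highest line. NFKBIE, the inhibitor IkB epsilon, spans 7386 bases on chromosome 6 (44258166 to 44265551) and had 5.49, 10.2 and 22.1 CPM per kilobase. The difference between these neighbours was 0.06 ± 0.25 log2 (SD, n = 93 lines), with NFKB2 higher in 59 lines, so the order of the 2 was within the spread.

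RELA, the main transactivating subunit of the canonical route, lies on chromosome 11 (65653601 to 65663857) and had 2.89, 7.13 and 10.2 CPM per kilobase in its lowest, median and highest line. NFKBIA, the inhibitor IkB alpha, is the shortest of the genes at 3237 bases on chromosome 14 (35401513 to 35404749), and had 3.78, 6.81 and 17.3 CPM per kilobase. RELA was above NFKBIA in 48 of 93 lines, so these 2 levels were not separated. TNFAIP3, which encodes the ubiquitin-editing enzyme A20 that shuts off upstream signalling, lies on chromosome 6 (137866349 to 137883312) and had 3.20, 5.33 and 8.67 CPM per kilobase.

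The other 5 genes had medians from 2.39 to 3.65 CPM per kilobase. REL, which encodes c-Rel, lies on chromosome 2 (60881574 to 60931612) and had 1.41, 3.65 and 7.37 in its lowest, median and highest line. BIRC3, which encodes the ubiquitin ligase cIAP2, lies on chromosome 11 (102317484 to 102339403) and had 1.58, 3.07 and 7.10. BCL3, a nuclear IkB protein that binds p50 and p52 dimers, lies on chromosome 19 (44747705 to 44760044) and had 1.56, 2.79 and 4.35.

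RELB, the partner of p52, also lies on chromosome 19 (45001464 to 45038192) and had 1.66, 2.72 and 4.00 CPM per kilobase. NFKB1, the source of p105 and p50, spans 115944 bases on chromosome 4 (102501359 to 102617302) and had 1.58, 2.39 and 3.93. Each of the 9 differences between neighbours in this order was smaller than 2 SD of the difference between lines. The ends of the order were apart: NFKB2 was 2.18 ± 0.39 log2 (SD) above NFKB1 per kilobase, and higher in 93 of 93 lines. This contrast depends on the division by span: per gene the median was 276.5 CPM for NFKB1 and 91.29 CPM for NFKB2. NFKBIA, NFKBIE, NFKB2 and RELA, with the shortest spans, had the highest medians per kilobase, and NFKB1, the longest, had the lowest. The part of span in this order was not tested.

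Per gene and not per kilobase, the same levels ran from a median of 22.04 CPM for NFKBIA to 277 CPM for NFKB1, as drawn in the plot of levels by gene. NFKB1 stood at or above 97.0% of all 14000 features, REL at or above 91.3%, and NFKBIA at or above 30.3%. The level of the table itself changes along its rows: the median feature of the nearest 1000 rows had 24.8 CPM around BCL3 and RELB, 33.3 CPM around NFKBIA and 58.7 CPM around NFKB1. The part of this in the order of the genes was not tested.

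**Figure D1:**
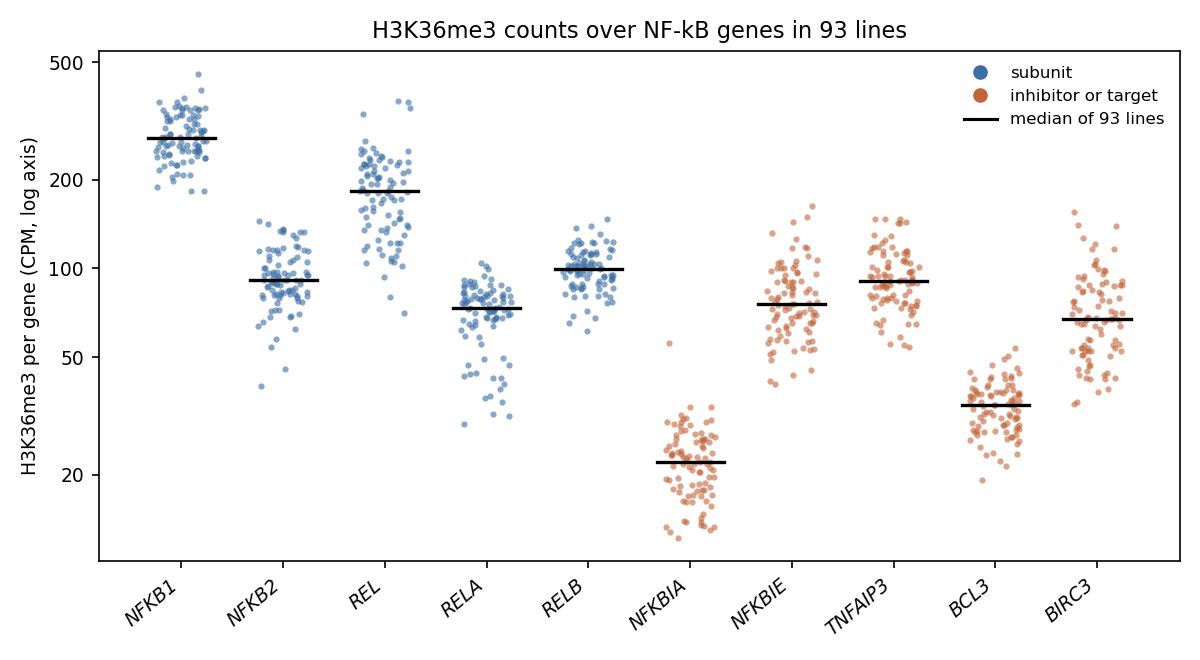
H3K36me3 level per gene in CPM (log axis) for each of 93 lines (points), with the median (bar), for 5 subunits on the left and 5 inhibitors or targets on the right. NFKB1 has the highest median, 277 CPM, and NFKBIA the lowest, 22.04 CPM; RELA has a tail of low libraries that goes with the drop along the table described in the text.

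The spread between lines differed from gene to gene. REL ran from 70.5 to 369 CPM with a median of 183, a highest value 5.23 times the lowest. NFKBIA ran from 12.2 to 55.96 CPM with a median of 22.04, and its second highest line had 33.9, so 1 line stood apart at the top. BIRC3 ran from 34.6 to 156 CPM with a median of 67.3. NFKBIE ran from 40.6 to 163 CPM with a median of 75.6. In these 4 genes the highest line was 4.03 to 5.23 times the lowest. For NFKBIA this rests on that 1 line: its second highest line was 2.78 times the lowest, below the 3.54 times of NFKB2 and the 3.43 times of RELA on the same measure.

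The tightest genes were RELB and NFKB1. RELB ran from 61.1 to 147 CPM with a median of 99.8, and NFKB1 from 183 to 456 CPM with a median of 277. Their highest lines were 2.40 and 2.49 times the lowest. BCL3 (19.2 to 53.7 CPM), TNFAIP3 (54.3 to 147 CPM), RELA (29.7 to 104 CPM) and NFKB2 (39.98 to 145 CPM) lay between, at 2.71 to 3.63 times.

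Spread was tested against features of like count by the goodness of fit of edgeR's model (deviance against the trended dispersion), with the log2 library total (depth) and the dynamic range of the library as covariates. Dynamic range is the distance, in log2 CPM, between the medians of the highest and the lowest quintile of features. At a Benjamini-Hochberg adjusted p of 0.05 over 13915 features, 7 of the 10 genes were called variable, against 18.6% of all features. NFKBIE had a dispersion 1.35 log2 above the trend (adjusted p = 2.89e-13, edgeR), REL 1.30 (adjusted p = 8.77e-13) and BIRC3 1.23 (adjusted p = 7.65e-11). NFKBIA (0.81, adjusted p = 0.000245), RELA (0.77, adjusted p = 0.000188), NFKB2 (0.61, adjusted p = 0.00403) and TNFAIP3 (0.48, adjusted p = 0.0356) were also called. NFKB1 (-0.84), RELB (-0.17) and BCL3 (-0.02) were not (adjusted p = 1 each). The median of all features was -0.51.

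The RELA call, and that of BIRC3, went with a drop in counts along the table. RELA and BIRC3 lie in rows 2499 and 2718, within a stretch, known from earlier results, where the level drops at a row that differs between libraries. When fitted on the other rows of the stretch, the last row before the drop lay between 2017 and 3047, and the drop was 0.867 log2. The drop fell before RELA in 17 libraries, where RELA had 29.7, 42.4 and 58.5 CPM (lowest, median, highest), and after it in 76 libraries, where RELA had 49.6, 76.9 and 104 CPM. These ranges overlapped only between 49.6 and 58.5 CPM. For BIRC3 the drop fell before it in 64 libraries (34.6, 57.3 and 95.8 CPM) and after it in 29 libraries (66.8, 91.9 and 156 CPM). NFKB2, in row 1924, lies before the earliest drop.

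Centring each row on the median deviation of its nearest 100 rows in the same library removed most of the RELA spread. The residual SD of RELA was 0.13 log2 after centring and 0.32 log2 before, and its log2 ratio to the trend was then -1.61 (adjusted p = 1, edgeR). BIRC3 went to 0.09 above the trend and was no longer called (adjusted p = 1). The other 5 calls were kept, among 17.2% of all features called in that setting. For TNFAIP3 the log2 ratio rose from 0.48 to 1.18, and the residual SD from 0.276 to 0.334 log2, so centring added spread to this gene. The correlation of the RELA level with that of its nearest rows was 0.931 over the 93 libraries, as the plot of gene level against neighbouring rows shows.

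**Figure D2:**
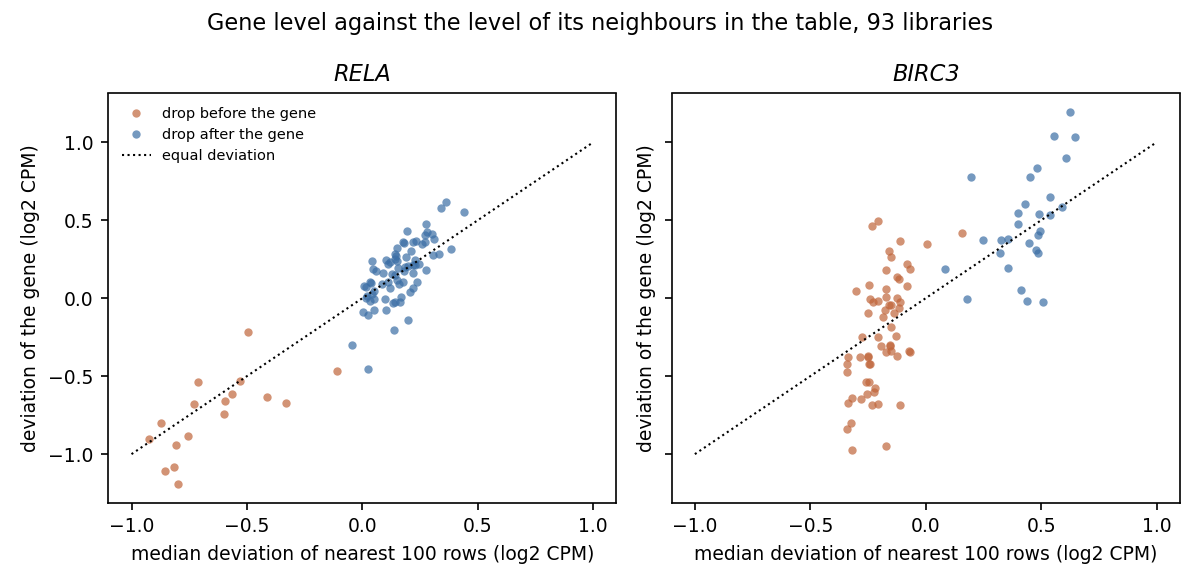
Deviation of the log2 CPM of RELA (left) and BIRC3 (right) from its mean over 93 libraries, against the median deviation of the nearest 100 rows of the table in the same library; colour shows whether the library's drop falls before or after the gene, and the dotted line marks equal deviations. RELA lies along the dotted line, with its 17 libraries of the first kind at the lower left.

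Calls were also fewer when principal components were added to the covariates. With the first 5 principal components of all features as further covariates, 2 of the 10 genes were called (REL and NFKBIA), against 18.3% of all features. Those 5 components held 74.8% of the residual variance of NFKBIE, 74% of NFKB2, 70.3% of TNFAIP3 and 50.6% of REL, against a median of 33.5% over all features. What the components stand for is not given by the labels.

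Most of the 10 genes tended to be high in the same lines. Each feature was fitted with limma on the level of each gene in turn, with depth and dynamic range as covariates, and a pair was called when both of its fits had an adjusted p under 0.05 over all 13914 other features. Of the 45 pairs, 36 were called, each with a positive correlation. The levels of many features move together in these libraries: over the 10 fits 25.1% of features were called higher with the gene and 23% lower. The median residual Pearson's r over the 45 pairs was 0.52, from -0.0401 to 0.852, against a median of 0.004 over all pairs of features. An r above 0.5 was seen in 25 of 45 pairs of the genes and in 2.01% of all pairs of features. The 2.01% covers features of every level and spread. For single genes, the share of all features with such an r ran from 0.712% for REL to 8.09% for RELA. The share among features of like level was not computed. The points of each correlation are the same 93 libraries.

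**Figure D3:**
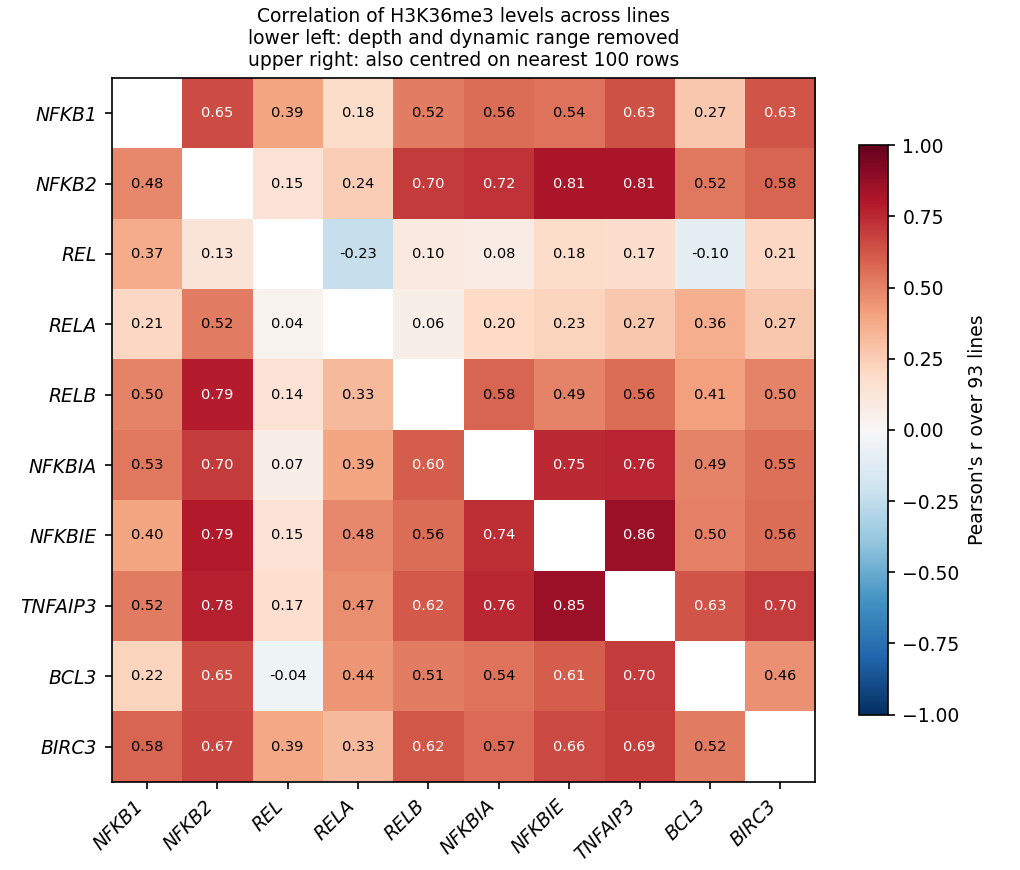
Pearson's r over 93 lines between the H3K36me3 levels of each pair of genes. Below the diagonal, depth and dynamic range are removed; above it, levels are also centred on the nearest 100 rows of the table. NFKB2, NFKBIA, NFKBIE and TNFAIP3 give 6 pairs with r from 0.7 to 0.852 below the diagonal, while the REL row and column are pale.

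The inhibitors and targets were the most alike. All 10 pairs among NFKBIA, NFKBIE, TNFAIP3, BCL3 and BIRC3 were called, with r from 0.517 to 0.852 and a median of 0.675. The strongest pair was NFKBIE and TNFAIP3, whose genes lie on opposite arms of chromosome 6 (r = 0.852, rho = 0.812, permutation p = 1e-05 for each, the lowest value that 100000 permutations allow; limma adjusted p = 5.33e-23). Without the 2 lines farthest from the median, r was 0.831. Of the 23 lines highest in TNFAIP3, 17 were among the 23 highest in NFKBIE. Among all 13914 features, NFKBIE was the one most like TNFAIP3, and TNFAIP3 the one most like NFKBIE. Before centring, the other genes had their best match among the 10 at rank 1 (RELB), 3 (BCL3), 12 (NFKBIA), 14 (NFKB2), 25 (BIRC3), 95 (NFKB1), 472 (REL) and 953 (RELA). For 7 of the 10, at least 1 feature outside them was thus more alike. The same matches stood at rank 1 (RELB), 1 (BCL3), 5 (NFKBIA), 6 (NFKB2), 1 (BIRC3), 197 (NFKB1), 2115 (REL) and 1442 (RELA) after centring.

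NFKBIA went with both. It had r = 0.756 with TNFAIP3 (rho = 0.756, permutation p = 1e-05 for each; limma adjusted p = 2.32e-15; r = 0.741 without 2 lines) and r = 0.739 with NFKBIE (rho = 0.746, permutation p = 1e-05 for each; limma adjusted p = 9.73e-15; r = 0.758 without 2 lines). BCL3 was closest to TNFAIP3 (r = 0.697, rho = 0.67, permutation p = 1e-05 for each; limma adjusted p = 4.74e-11; r = 0.707 without 2 lines), and 18 of the 23 highest lines were shared.

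Of the subunits, the 2 of the non-canonical route were the most alike. NFKB2 and RELB had r = 0.787 (rho = 0.74, permutation p = 1e-05 for each; limma adjusted p = 9.92e-17; r = 0.748 without 2 lines), and NFKB2 was the feature most like RELB among all 13914. NFKB2 also went with the inhibitors, with r = 0.793 for NFKBIE (rho = 0.803, permutation p = 1e-05 for each; limma adjusted p = 1.65e-18; r = 0.791 without 2 lines) and r = 0.781 for TNFAIP3 (rho = 0.766, permutation p = 1e-05 for each; limma adjusted p = 2.25e-17; r = 0.786 without 2 lines). RELB and BCL3, which stand 6 rows apart in the table, had r = 0.509 (rho = 0.494, permutation p = 1e-05 for each; limma adjusted p = 9.02e-06; r = 0.503 without 2 lines). Features 6 rows apart had a mean r of 0.108 ± 0.263 (SD, 13836 pairs).

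NFKB1 was called with 7 of the other 9 genes, against 21.8% of all features called higher with it. Its r ran from 0.207 with RELA to 0.584 with BIRC3 (rho = 0.627, permutation p = 1e-05 for each; limma adjusted p = 1e-07; r = 0.585 without 2 lines). The pairs not called were those with RELA and BCL3 (r = 0.221).

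REL was called with 2 of the other 9 genes, BIRC3 and NFKB1, against 12.5% of all features called higher with it. Its r was 0.388 with BIRC3 (rho = 0.41, permutation p = 0.00013 and 7e-05; limma adjusted p = 0.00189; r = 0.396 without 2 lines) and 0.371 with NFKB1 (rho = 0.396, permutation p = 0.00031 and 0.00013; limma adjusted p = 0.00414; r = 0.373 without 2 lines). With TNFAIP3 it was 0.166 (rho = 0.226, permutation p = 0.114 and 0.0304; limma adjusted p = 0.239; r = 0.175 without 2 lines), and with NFKB2 it was 0.131 (rho = 0.161, permutation p = 0.209 and 0.122; limma adjusted p = 0.367; r = 0.127 without 2 lines). The other 9 genes were each called in 7 to 9 of their 9 pairs. Whether the correlations of REL differ from those of another subunit was not tested. The count for REL depended on the covariates. With depth and dynamic range left in, REL was called with 6 of the 9 genes, where 35% of features were called higher over the 10 fits: its r was then 0.44 with TNFAIP3 (limma adjusted p = 2.41e-05), 0.318 with NFKBIA (limma adjusted p = 0.00319), 0.258 with RELB (limma adjusted p = 0.0209) and 0.245 with NFKBIE (limma adjusted p = 0.0256). In each depth class, and with 5 or 10 principal components removed, no pair with REL was called by limma. The residual SD of REL was 0.37 log2, against 0.28 log2 for TNFAIP3. The scatter of residual levels shows REL spread at every level of TNFAIP3.

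**Figure D4:**
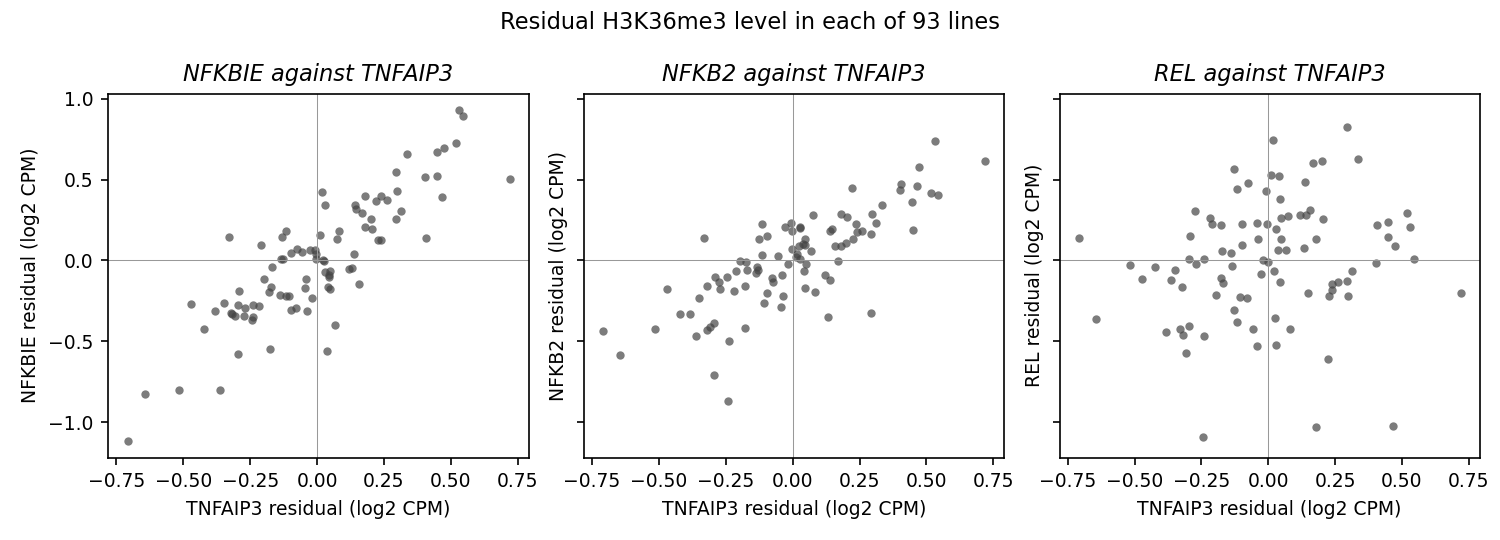
Residual log2 CPM of NFKBIE (left), NFKB2 (middle) and REL (right) against that of TNFAIP3 in each of 93 lines, with depth and dynamic range removed. NFKBIE (r = 0.852) and NFKB2 (r = 0.781) lie along a line, and REL (r = 0.166) does not.

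RELA and BIRC3 were also compared within libraries on the same side of the drop. Over all 93 lines RELA was called in 7 of 9 pairs, against 34% of all features called higher with it. After rows were centred it was called in 1, with BCL3 (r = 0.361, limma adjusted p = 0.0207), where 19% of features were called higher over the 10 fits. With centring on the 20 nearest rows, no pair with RELA was called. In the 76 libraries with the drop after RELA its r with the other genes had a median of 0.249, from -0.135 for REL to 0.472 for BCL3. In the 17 libraries with the drop before it the median was 0.495, from 0.00992 for REL to 0.737 for NFKBIA. Without the 2 of these 17 farthest from the RELA median, r was lower for each gene but REL. It then ran from 0.0603 for REL to 0.605 for NFKBIA, with 0.234 for NFKBIE. In the 76 libraries it then ran from -0.238 for REL to 0.35 for TNFAIP3. Whether the 2 classes differ was not tested. BIRC3 had a median r of 0.612 (0.224 to 0.726) with the other genes in the 64 libraries with the drop before it, and of 0.549 (0.413 to 0.716) in the 29 with the drop after it. With TNFAIP3 the r of BIRC3 was 0.726 in the 64 libraries (rho = 0.728, permutation p = 1e-05 for each). In the 29 it was 0.668 (rho = 0.625, permutation p = 9e-05 and 5e-04). Without the 2 lines farthest from the BIRC3 median in each class, r was 0.756 and 0.538.

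Most of the other calls were kept after rows were centred. Centring also added spread to some genes. The residual SD was 0.209 log2 after centring and 0.166 before for NFKB1, and 0.334 and 0.276 for TNFAIP3. NFKB1 and NFKB2 had r = 0.651 after centring and 0.478 before. A higher r after centring is therefore not read as a stronger relation. Of the 36 pairs, 29 were still called after centring, and the median r was 0.497. The pair NFKBIE and TNFAIP3 had r = 0.862 and NFKB2 and NFKBIE r = 0.815. REL and BIRC3 was no longer called (r = 0.21, limma adjusted p = 0.136), and REL kept its call with NFKB1 (r = 0.391, limma adjusted p = 0.00248). With centring on the 20 nearest rows, a setting added after the data were seen, no pair with REL was called. Adjacent rows can also be alike: NFKBIE had r = 0.797 with the row before it, NFKB2 r = 0.746 and REL r = 0.735 with the row after. Whether these rows share reads with the genes was not tested.

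Fewer pairs were called in the deeper libraries. Of the 45 pairs, 33 were called in the 46 shallower libraries, where 13.2% of features were called higher over the 10 fits, and 17 in the 47 deeper ones, where 6.42% were. The median r was 0.51 among the shallower libraries and 0.39 among the deeper ones, and whether the 2 differ was not tested. NFKB2, NFKBIA, NFKBIE and TNFAIP3, a group chosen after their values were seen, were called in all 6 of their pairs in both classes, with r from 0.688 to 0.852 in the first class and from 0.633 to 0.792 in the second.

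The median correlation was lower with principal components of all features removed. The 10 genes were among the features that gave the components, so variation that the genes share could be removed with them. With the first 5 principal components removed, the median r over the 45 pairs was 0.136, and 5 pairs were called, where 0.896% of features were called higher over the 10 fits. The pairs called were NFKB2 and RELB (r = 0.576, limma adjusted p = 8.44e-05), NFKBIE and TNFAIP3 (r = 0.538, limma adjusted p = 0.000209), NFKBIA and TNFAIP3 (r = 0.517, limma adjusted p = 0.000311), NFKBIA and NFKBIE (r = 0.384, limma adjusted p = 0.0257) and NFKB2 and NFKBIA (r = 0.403, limma adjusted p = 0.0347). With 10 components removed 6 pairs were called, where 0.295% of features were called higher. NFKB2 and RELB (r = 0.559) and the 3 pairs among NFKBIA, NFKBIE and TNFAIP3 (r from 0.407 to 0.538) were called in both settings. The plot of pairs under 4 settings sets these values side by side.

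**Figure D5:**
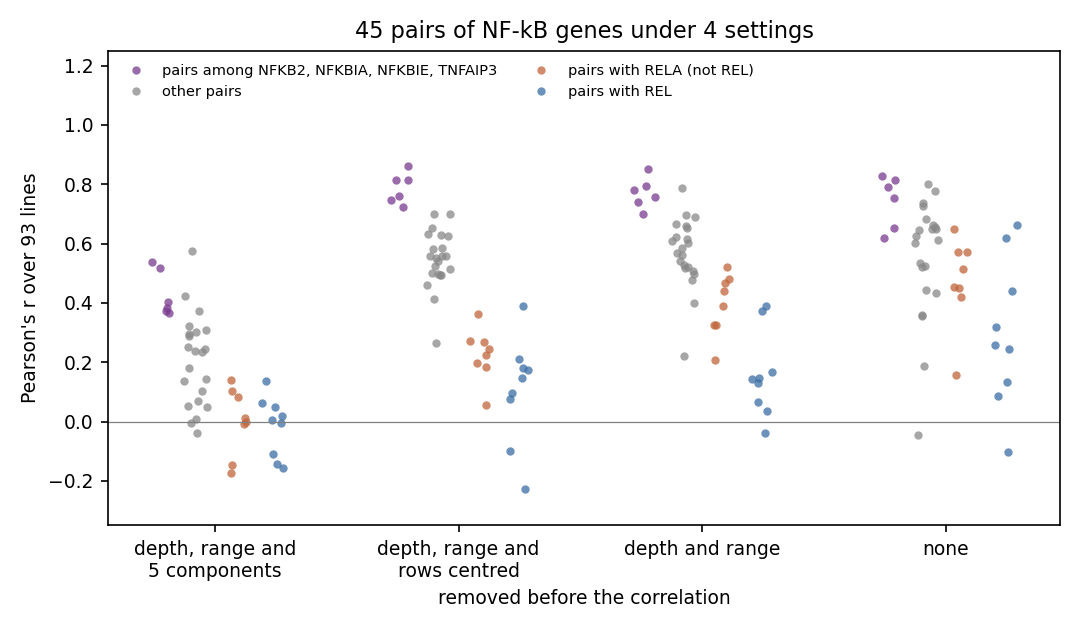
Pearson's r over 93 lines for the 45 pairs of genes (points) with different sources of variation removed, coloured by kind of pair. Pairs among NFKB2, NFKBIA, NFKBIE and TNFAIP3, a group chosen after its values were seen, lie between 0.366 and 0.538 with 5 components removed, where NFKB2 and RELB, outside the group, has the highest r (0.576) and TNFAIP3 and BCL3 has 0.422. With 10 components removed the group lies between 0.279 and 0.538.

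The levels also moved with measures of the library as a whole. Depth and dynamic range were terms of 1 fit, so each change below is given with the other measure held. The 2 measures had r = -0.51 with each other over the libraries. All 10 genes were called higher in libraries with a larger dynamic range, against 44.2% of all features (limma, adjusted over 13915 features). Dynamic range is itself built from feature levels, and NFKB1 and REL belong to the highest quintile that enters it. The 44.2% covers features of every level, and the share among features of like level was not computed. The 10 calls are therefore not read as a trait of these genes. The largest change was that of BIRC3, 0.33 ± 0.04 log2 (SE) per SD of dynamic range (limma adjusted p = 5.84e-11), and the smallest that of BCL3, 0.08 ± 0.03 log2 (limma adjusted p = 0.00877). With depth, RELA (0.26 ± 0.04 log2 per SD), NFKB2 (0.20 ± 0.04), BCL3 (0.18 ± 0.03), NFKBIE (0.13 ± 0.05) and RELB (0.07 ± 0.03) were called higher, where 30.6% of features were. NFKB1 was called lower with depth (-0.09 ± 0.02 log2 per SD, limma adjusted p = 0.000114), where 34.4% of features were. Both measures were removed before the correlations above. With neither removed, 39 pairs were called, 35 of them among the 36. NFKB1 and NFKB2 then had r = 0.186, against 0.478 with both removed, REL and NFKB1 had r = 0.663, against 0.371, and REL and TNFAIP3 had r = 0.44, against 0.166.

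Outside the 10 genes, the features most like each are known by identifier alone. The feature most like NFKB2, more than 20 rows away, was ENSG00000090339.9 (r = 0.861), and this feature was also the most like RELB outside the genes (r = 0.731). After rows were centred, its r was 0.718 with NFKB2 and 0.667 with RELB, where NFKB2 and NFKBIE had 0.815. The number of features with r above 0.5 ran from 99 for REL to 1126 for RELA, which lies in the stretch with the drop, of 13914.

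The second deposited table holds normal scores of the same features. For the 10 genes the Spearman correlation between score and log2 CPM over the 93 lines was 0.976 to 0.985. On the scores, 34 of the 45 pairs were called, all of them among the 36, where 17.6% of features were called higher over the 10 fits.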

How the data were processed

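H3K36me3 CUT&Tag was measured in 93 lymphoblastoid lines. The authors deposited whole-number counts per Ensembl gene identifier and a table of normal scores; in the deposited score table every library holds the same set of sorted values. Per the submitters' processing notes, HISAT2 2.2.1, bedtools and the build hg38 were used; their roles, the interval counted, filters on reads and the making of the scores are not stated.

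Counts were scaled with TMM (factors 0.916 to 1.05; edgeR 4.0.16, R 4.3.3) and expressed as log2 CPM with a prior count of 2. Tests ran over the 13915 features that reached 10 counts in 47 or more libraries, which include all 10 genes, whose lowest count in a library was 40. Covariates were log2 library total and dynamic range. Spread was tested with edgeR's goodness of fit to the trended dispersion, and relations to library measures and pairs of genes with limma 3.58.1, with Benjamini-Hochberg adjustment over all features tested. Pearson's r was taken on residuals, with 100000 two-sided permutations of the lines. P-values measure the spread between libraries, since nothing gives separate cultures of 1 line.

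All 10 genes are named; the feature outside them most like each gene was sought more than 20 rows away, and at most 2 identifiers are printed. Lists of upstream kinases, other regulators, targets and cell type markers, fixed by symbol, were not used, since no table pairs the identifiers with symbols. The genes and lists were chosen with earlier results of these data known. Gene spans and promoters, matched by symbol, come from RefSeq (GRCh38.p14). Alternatives tried were no filter, size factors and dispersion outliers from DESeq2 1.42.0, other covariates and a prior count of 0.5. A robust estimate of each feature's own dispersion was also tried, which leaves the trend and the goodness-of-fit p-values unchanged. Further alternatives were leaving out the 10 shallowest libraries, centred rows, depth classes and the deposited scores. Centring on 20 rows was added after the data were seen. The scripts were tested on simulated data.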

Additional observations from a re-analysis of the deposited data

How the results depend on the processing

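Centring on the 20 nearest rows was added with the data in view, and the rest were listed with earlier results known. Of 717 values under alternatives, 551 were scored as kept. Single tests had to keep their direction and side of the threshold, and levels and medians had to stay within their spread. Counts only had to stay within a set factor of the main count, so 5 variable genes against 7, and 30 called pairs against 36, were scored as kept. The count of variable genes, 7, was 2 with 5 and 1 (REL) with 10 principal components, and 0 by DESeq2's dispersion outliers, a stricter criterion that called 1.74% of all features; the cause of the first 2 was not tested. The REL call was kept under each edgeR alternative. For the robust alternative this was fixed in advance, since it alters each feature's own dispersion and the test uses the trend. Its values are among the 551. TNFAIP3 fell short of the threshold with DESeq2 size factors (0.432, adjusted p = 0.0629, edgeR) and, with NFKB2, without the 10 shallowest libraries (adjusted p = 0.102 and 0.0768, edgeR) and with the intercept only (0.338 and 0.307, adjusted p = 0.133 and 0.166, edgeR), where the count was 5. The log2 ratio of own to trended dispersion changed sign, with no call, with 5 components for NFKB2 (-0.44), RELA (-0.548) and TNFAIP3 (-0.346), with 10 components for NFKB2 (-0.33), RELA (-0.508) and TNFAIP3 (-0.468), for RELA with centred rows (-1.61, and -1.74 with 20 rows), for BCL3 without the 10 shallowest libraries (0.0765) and with 20 rows (0.248), and for RELB with 20 rows (0.035). The count of called pairs, 36, was 5 with 5 and 6 with 10 components, and 17 in the 47 deeper libraries; it was 28 to 39 under the other alternatives. The median r, 0.52, was 0.136 with 5 and 0.168 with 10 components. The cause of these changes was not tested. Correlations that changed sign, none of them called in its new setting, were as follows. With DESeq2 size factors, REL and RELA had r = -2.44e-05. With the intercept only, NFKB1 and BCL3 had -0.0455. With 5 components, NFKB1 had -0.000299 with RELA, -0.0373 with NFKBIE and -0.00573 with BCL3, NFKB2 had -0.00496 with REL and -0.147 with RELA, REL had -0.142 with RELA and -0.111 with NFKBIA, and RELA had -0.00786 with RELB and -0.172 with BIRC3. With 10 components, NFKB1 had -0.0741 with RELA, -0.0993 with NFKBIE and -0.0346 with BCL3, NFKB2 and RELA had -0.235, REL and BIRC3 had -0.0279, and RELA had -0.0893 with RELB, -0.0909 with NFKBIA, -0.017 with BCL3 and -0.107 with BIRC3. Without the 10 shallowest libraries, REL and BCL3 had 0.00177. REL and RELA had -0.229 with centred rows, -0.212 with 20 rows, -0.03 on the deposited scores and -0.102 in the 47 deeper libraries, where NFKB1 and RELA had -0.134 and REL and NFKBIA had -0.105. In the 46 shallower libraries, REL had -0.00251 with NFKB2 and -0.0236 with RELB. With 20 rows, RELA had -0.00554 with NFKB2, -0.0717 with RELB, -0.0834 with NFKBIA and -0.00281 with NFKBIE. Of the 10 genes, 5 were called for dynamic range in the 46 shallower libraries, against 10 in all libraries. The scores had a median correlation of 0.982 with log2 CPM and of 0.834 with its residuals, which lack depth and dynamic range by construction. No paired analysis was possible because the libraries form 1 group. In the shallowest libraries depth limits the lowest gene, NFKBIA, which had 40 counts in 1 line.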
